A study of Mus musculus with 42 samples.

Results

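The receptors for the colony-stimulating factors and one of their ligands were followed across sorted mouse microglia: Csf1r, Csf1, Csf2ra, Csf2rb and Csf3r. These 5 genes were taken by name from the 24421 rows of the whole-brain count table and the 53546 rows of the cortex and hippocampus count table, and all 5 were present in both tables and passed the filter on low counts in every fit. The 42 libraries are bulk RNA-seq of CD11b+CD45lo cells sorted from C57BL/6 mice, in 11 groups. Mice were specific-pathogen-free (SPF, with a normal microbiota free of listed pathogens), germ-free (GF, with no microbiota) or germ-free and given acetate in drinking water (GFA). Whole brain came from wild-type mice of 6 to 12 weeks, titled 8 weeks and F, with 3 SPF and 5 GF libraries. Cortex and hippocampus came from mice of 16 weeks. Cortex was wild type, with 4 SPF, 4 GF and 4 GFA libraries. Hippocampus was wild type (4 SPF, 3 GF, 4 GFA) or 5xFAD (4 SPF, 3 GF, 4 GFA). 5xFAD mice carry human transgenes with familial Alzheimer mutations, driven in neurons by the Thy1 promoter, and they deposit amyloid. The protocol gives acetate for 4 weeks in one GF group and for 8 weeks in a group of GF wild-type and 5xFAD mice, and the labels do not say which duration each GFA library had.

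CSF1R is a receptor tyrosine kinase on which microglia depend for survival and proliferation. Its ligands are CSF1 (M-CSF), made by many cells including myeloid cells, and IL-34, made in the brain mainly by neurons. CSF2RA binds GM-CSF and signals with the common beta chain CSF2RB, which also serves the IL-3 and IL-5 receptors in mice, and which has a mouse-specific, IL-3-restricted paralogue encoded by Csf2rb2. CSF3R is the G-CSF receptor, best known for driving neutrophil production. CSF1 is among the genes known to rise in microglia near amyloid plaques.

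Depth was 19329304 to 25366393 counts in whole brain, 15790383 to 23860490 counts in cortex and 5743891 to 22532410 counts in hippocampus. Wild-type SPF4 (5862938 counts) and 5xFAD SPF2142 (5743891 counts) were the only hippocampus libraries below 15060925 counts. The 9 microglial markers were detected in all 22 hippocampus libraries and summed to 30160 to 47570 CPM (counts scaled to library size) there and 31630 to 46970 CPM in cortex. One library went against its label. Cst7, a protease inhibitor that marks plaque-associated microglia, was at 13.1 CPM in the library labelled 5xFAD SPF2152, against 355 to 783 CPM in the other 10 5xFAD libraries and 4.32 to 22.02 CPM in the 11 wild-type hippocampus libraries. It is called the library labelled 5xFAD SPF2152 below, and the member differences that it moves most are given with and without it. Wild-type hippocampus GFA518 also stood apart, with Itgax, an integrin of the same microglial state, listed at 0 counts. It had 16607 genes detected at 21746850 counts, the fewest genes of any cortex or hippocampus library. Wild-type hippocampus GF530 had 17750 genes detected at 16468507 counts. Neutrophil markers summed to 281 CPM in 5xFAD SPF2153, 244 CPM in wild-type hippocampus GF532 and 189 CPM in whole-brain GF4.

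Promoter windows of Csf1 and Csf2ra are shown because these were the members that differed between 5xFAD and wild-type hippocampus. They come from RefSeq on GRCm38.p6, run from 250 bases before to 50 bases after the start site, and are on the minus strand at chr3:107760420-107760719 (Csf1) and chr19:61228369-61228668 (Csf2ra). Capitals mark matches to the motifs searched.
Csf1: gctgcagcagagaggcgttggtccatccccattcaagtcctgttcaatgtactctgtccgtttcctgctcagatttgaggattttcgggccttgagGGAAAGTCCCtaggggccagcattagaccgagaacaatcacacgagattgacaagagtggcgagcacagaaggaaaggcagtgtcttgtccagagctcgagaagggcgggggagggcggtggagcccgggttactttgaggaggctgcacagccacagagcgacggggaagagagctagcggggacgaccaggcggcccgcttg
Csf2ra: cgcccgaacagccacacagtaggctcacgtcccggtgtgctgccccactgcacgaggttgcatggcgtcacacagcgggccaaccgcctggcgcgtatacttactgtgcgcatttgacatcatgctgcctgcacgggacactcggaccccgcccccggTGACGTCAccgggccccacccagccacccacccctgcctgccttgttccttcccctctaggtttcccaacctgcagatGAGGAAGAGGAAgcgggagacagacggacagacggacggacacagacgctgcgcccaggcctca
Motifs were searched on both strands as the NF-kB consensus of 10 letters with 1 free position, TGACGTCA for CRE, GAGGAA for the core of a PU.1 site, TGANTCA for AP-1 and TTGCNNAA for C/EBP. The Csf1 window held 1 match, to the NF-kB consensus on the opposite strand, beginning at position -154 from the start site. The Csf2ra window held the CRE letters at position -92 and adjoining PU.1 core letters at positions -14 and -8. No match overlapped another. The NF-kB consensus occurs in 0.411% of 32851 windows of the same length, CRE letters in 1.79% and PU.1 core letters in 28.3%. Of the 5 members, 3 had a window in the table, and that of Csf3r on chromosome 4 held the PU.1 core at position -86. A match describes letters only and says nothing of binding.

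Per kilobase of exon, the levels of the members lay far apart in cortex and hippocampus. Csf1r was highest, with group means of 1790 to 2804 CPM per kb, followed by Csf3r with 151 to 216 CPM per kb. Csf2ra had 24.7 to 41.9 CPM per kb and Csf2rb 16.2 to 20.3 CPM per kb. Csf1 spanned the widest range, from 3.45 CPM per kb in GF cortex to 25.3 CPM per kb in GFA 5xFAD hippocampus, a 7.33-fold spread of group means. The same spread was 1.57-fold for Csf1r, 1.43-fold for Csf3r, 1.70-fold for Csf2ra and 1.26-fold for Csf2rb. Whole brain was counted and scaled in a table of its own, so its levels are not compared with the others. There the order was Csf1r, Csf3r, Csf2ra, Csf2rb and Csf1, with 2705, 81.1, 10.2, 8.79 and 3.79 CPM per kb in SPF mice.

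**Figure D1:**
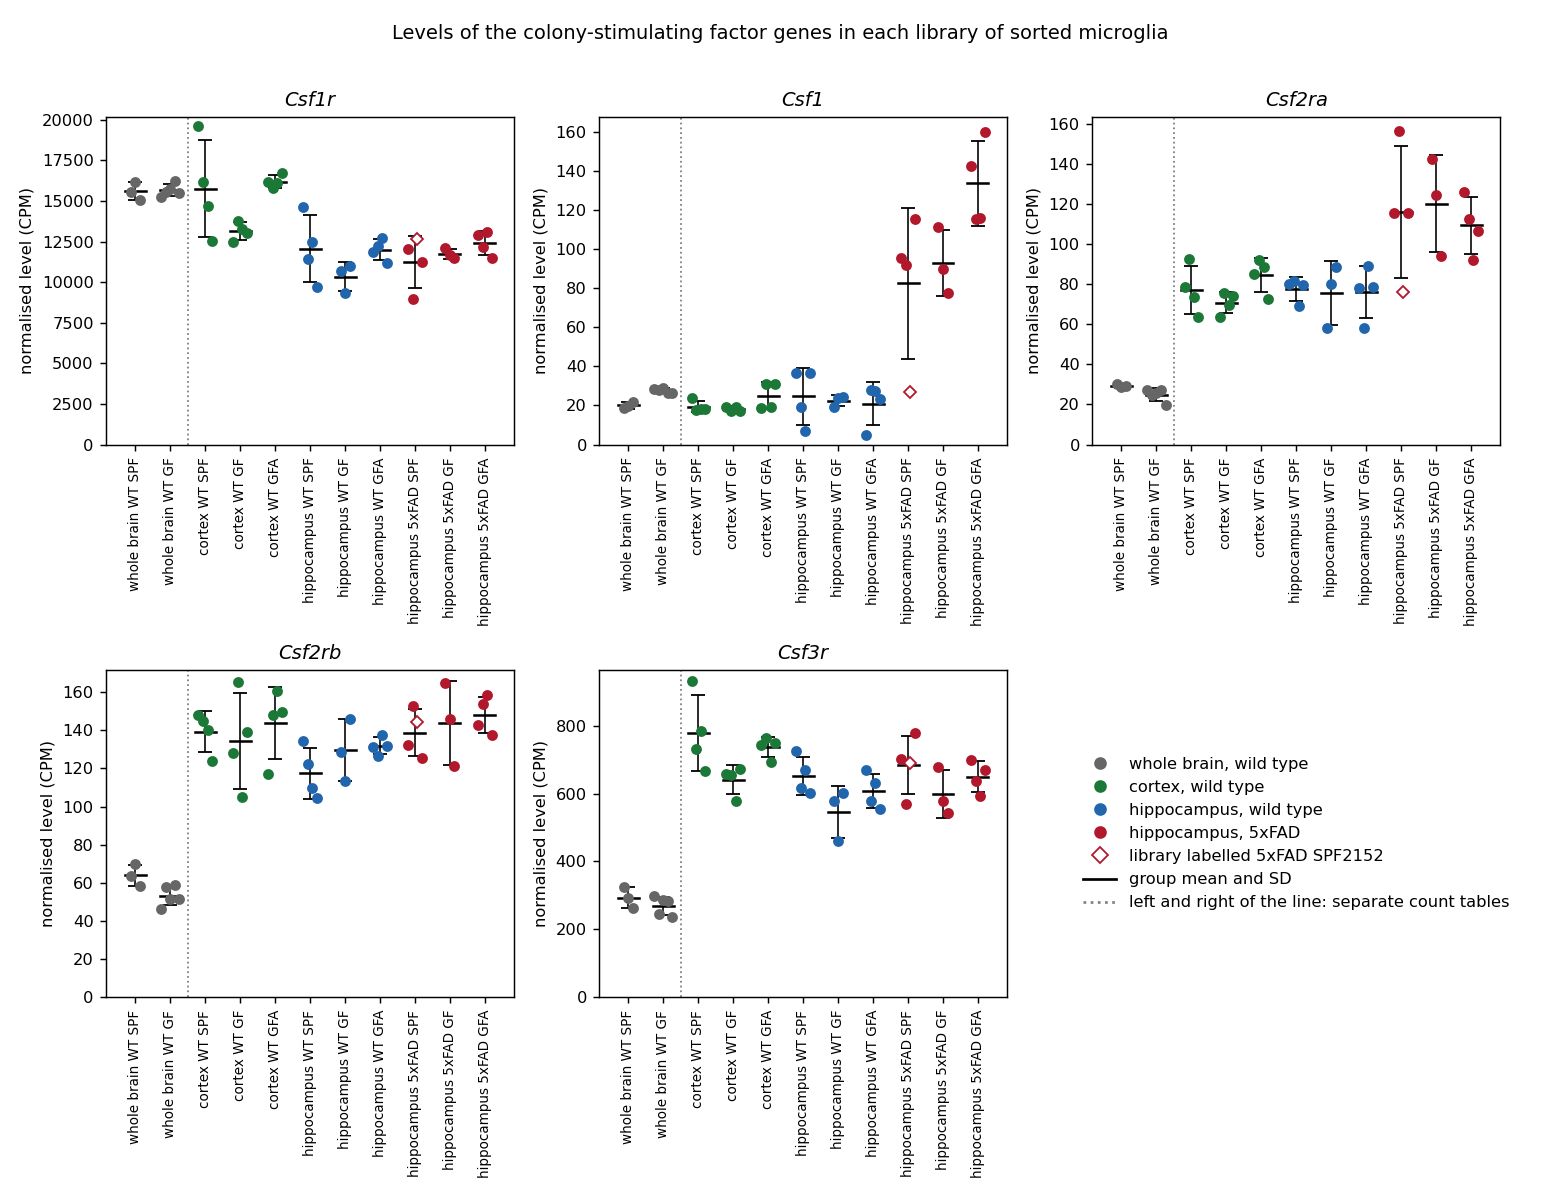
Normalised level in CPM (vertical axis, from 0) of each member in each library, by group (horizontal axis). Points are libraries, bars are group means with SD, and the open diamond is the library labelled 5xFAD SPF2152. Csf1 in the other 10 5xFAD libraries sits between 77.6 and 160 CPM, above all wild-type libraries to the right of the dotted line.

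When the 9 cortex and hippocampus groups were put in order of their means, most neighbours overlapped in their library values. All 8 neighbouring pairs overlapped for Csf1r, Csf2rb and Csf3r. For Csf1, GFA 5xFAD hippocampus (133 ± 21.6 CPM, SD, n = 4) stood apart from GF 5xFAD hippocampus (92.8 ± 16.98 CPM, SD, n = 3), next in order, while the other 7 pairs overlapped. For Csf2ra the gap fell between GFA 5xFAD hippocampus (109 ± 14.1 CPM, SD, n = 4) and GFA cortex (84.5 ± 8.50 CPM, SD, n = 4).

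Csf1, the ligand, was the member that differed most between genotypes. In SPF hippocampus it was at 36.4, 19.2, 6.71 and 36.8 CPM in the 4 wild-type libraries and at 95.5, 91.9 and 115 CPM in 3 5xFAD libraries, with 26.7 CPM in the library labelled 5xFAD SPF2152. In GF hippocampus it was at 19.2, 23.8 and 24.5 CPM in wild type and at 111, 89.7 and 77.6 CPM in 5xFAD. In GFA hippocampus it was at 4.80, 28.001, 27.5 and 23.1 CPM in wild type and at 143, 115, 116 and 160 CPM in 5xFAD. In all, 10 of the 11 5xFAD libraries lay above the highest of the 11 wild-type hippocampus libraries. The exception was the library labelled 5xFAD SPF2152, which lay within the wild-type range. In bulk libraries such as these, fewer or more cells of a type and less or more RNA per cell cannot be told apart. The lowest wild-type values were those of GFA518 and of SPF3, a library in which erythroid markers summed to 71.4 CPM against 0.144 to 1.32 CPM in the other 3 of its group. The part of these libraries in the spread of Csf1 was not tested.

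The fitted difference of Csf1, 5xFAD against wild type, passed the threshold of an adjusted p of 0.05 within the GFA animals. There it was 2.68 on the log2 scale (SE 0.48, adjusted p = 0.00310), a 6.42-fold higher level. Without wild-type GFA518 it was 2.34 (SE 0.44, adjusted p = 0.00614). Csf1 was the 1 of 5 members called in that comparison, in which 2.51% of all genes tested were called. In SPF hippocampus the Csf1 difference was 1.75 (SE 0.48, adjusted p = 0.107), and without the library labelled 5xFAD SPF2152 it was 2.05 (SE 0.43, adjusted p = 0.0119). In GF hippocampus it was 2.04 (SE 0.55, adjusted p = 0.0862), with ranges that did not overlap. Without the library labelled 5xFAD SPF2152, an SPF library in the same fit, the GF difference of Csf1 was 2.04 (SE 0.47, adjusted p = 0.0314). The GF ranges of Csf2ra and Csf1r were also apart, with uncalled differences (adjusted p of 0.164 and 0.652). With 3 libraries in each group ranges part easily, and the share of all genes with ranges apart was not counted. With all libraries kept, edgeR called 0 of the 5 members in SPF and in GF hippocampus, against 0.568% and 0.756% of all genes. Unadjusted p was under 0.05 for 3 and 2 members, and DESeq2 called 1 in each, which was Csf1.

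Averaged over the 3 housing groups, a comparison added after the values per group were seen, Csf1 was 4.46-fold higher in 5xFAD (log2 difference 2.16, 95% interval 1.55 to 2.76, SE 0.29, adjusted p = 3.84e-05). Without the library labelled 5xFAD SPF2152 the averaged difference was 2.26 (SE 0.26, adjusted p = 2.47e-06). Csf1 and Csf2ra were the 2 of 5 members called in this averaged comparison, which called 6.96% of all genes and 4.2% as higher. Whether the Csf1 difference itself varied with housing was tested as an interaction and was not called. The change in the Csf1 genotype difference was 0.29 (SE 0.70, adjusted p = 0.9999) from SPF to GF, 0.64 (SE 0.70, adjusted p = 0.995) from GF to GFA and 0.93 (SE 0.65, adjusted p = 0.892) from SPF to GFA. edgeR called 0 members in the 3 interactions, and 0% of all genes, and 0 members had an unadjusted p under 0.05. DESeq2 also called 0 members, and 18, 6 and 25 of all genes. These intervals are wide: the last runs from -0.42 to 2.29. Without the library labelled 5xFAD SPF2152 the change in the Csf1 difference was -0.01 (SE 0.63, adjusted p = 0.9999) from SPF to GF and 0.64 (SE 0.59, adjusted p = 0.927) from SPF to GFA.

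Csf2ra, the GM-CSF-binding chain, was higher in 5xFAD hippocampus by a smaller amount. It was at 80.2, 81.8, 69.0 and 79.8 CPM in wild-type SPF libraries and at 116, 157 and 116 CPM in 3 5xFAD SPF libraries, with 76.4 CPM in the library labelled 5xFAD SPF2152. It was at 58.0, 80.2 and 88.8 CPM in wild-type GF and at 142, 125 and 94.0 CPM in 5xFAD GF. It was at 78.2, 58.2, 89.2 and 78.4 CPM in wild-type GFA and at 126, 112, 92.2 and 107 CPM in 5xFAD GFA. As for Csf1, 10 of 11 5xFAD libraries lay above every wild-type one, and the library labelled 5xFAD SPF2152 did not. The margin was narrow, since the lowest of those 10 was at 92.2 CPM and the highest wild-type library at 89.2 CPM. Averaged over housing, Csf2ra was 1.504-fold higher in 5xFAD (log2 difference 0.59, SE 0.11, adjusted p = 0.00135), or by a log2 difference of 0.64 (SE 0.10, adjusted p = 1.47e-04) without that library. Within single housing groups the Csf2ra difference was 0.58 (SE 0.18, adjusted p = 0.192) in SPF, 0.66 (SE 0.21, adjusted p = 0.164) in GF and 0.53 (SE 0.18, adjusted p = 0.144) in GFA. The SPF difference became 0.73 (SE 0.17, adjusted p = 0.0234) without the library labelled 5xFAD SPF2152.

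**Figure D2:**
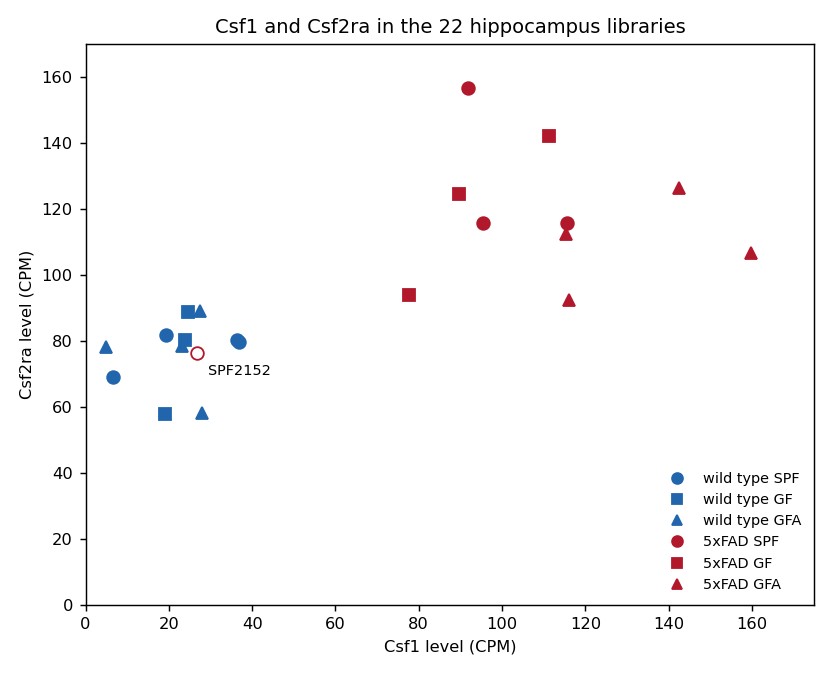
Csf1 level (horizontal axis, CPM) against Csf2ra level (vertical axis, CPM) in the 22 hippocampus libraries, with colour for genotype and shape for housing. Apart from the open circle, the library labelled 5xFAD SPF2152, the 5xFAD libraries start at 77.6 CPM of Csf1 and 92.2 CPM of Csf2ra, and no wild-type library reaches either.

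The other receptors did not pass the test between genotypes. Csf2rb, the shared beta chain, had medians of 144 CPM in 5xFAD (121 to 165 CPM, n = 11) and 129 CPM in wild type (104 to 146 CPM, n = 11), and the ranges overlapped. Its averaged difference was 0.18 (SE 0.07, adjusted p = 0.0993). DESeq2 called it, with 0.19 (adjusted p = 0.0470), as did the fit without 5xFAD GF531, with 0.22 (adjusted p = 0.0446). Without the library labelled 5xFAD SPF2152 it was 0.18 (adjusted p = 0.13). Csf2rb and Csf2rb2 share 18.4% of the 50-base stretches of the longest Csf2rb transcript, so counts could move between them. Csf2rb2 was lower in level, with group means of 31.9 to 46.5 CPM in cortex and hippocampus. Csf1r had an averaged difference of 0.04 (95% interval -0.09 to 0.17, adjusted p = 0.790) and Csf3r of 0.10 (95% interval -0.03 to 0.23, adjusted p = 0.431). Csf3r shares 9.47% of the stretches of its longest transcript with AC105061.2. Csf3r was highest among hippocampus libraries in 5xFAD SPF2153 (777 CPM), the library with the most neutrophil marker counts, and its SPF genotype difference moved from 0.07 to -0.04 without that library and the one labelled 5xFAD SPF2152, a fit added after seeing the data. Both values were uncalled, with adjusted p of 0.933 and 0.966.

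Genes of other cell types did not all stay level between genotypes. Of 7 border macrophage markers 6 were tested in the averaged comparison and 1 was called, Pf4, a chemokine of platelets and border macrophages, higher by 4.76 (SE 0.82, adjusted p = 6.95e-04), or by 4.82 (adjusted p = 8.04e-04) without the library labelled 5xFAD SPF2152. The border macrophage list summed to 3.87 to 31.95 CPM in 5xFAD and 1.26 to 27.3 CPM in wild type, with 0 to 3 and 1 to 5 of its genes at 0 counts. Single genes of other lists were called as well. Gfap, 1 of 3 astrocyte markers tested, and Flt1, 1 of 3 endothelial markers, were higher, while Pecam1 of the latter list was at -0.10 (adjusted p = 0.868). Mobp, 1 of 5 oligodendrocyte markers, and Zbtb46, 1 of 4 dendritic markers, were lower. The other 3 dendritic markers had differences above 0 and did not pass, and the median of that list was 0.26. The part of border macrophages and other cell types in the Csf1 and Csf2ra differences was not tested. Of the 9 microglial markers 5 were lower in 5xFAD, with a list median of -0.29, and these include P2ry12 and Tmem119.

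Csf1r, the receptor for CSF1, differed instead between brain regions. Its level was lower in hippocampus than in cortex in each of the 11 wild-type animals that gave both, by 0.23 to 0.58 on the log2 scale. Libraries were taken as of one animal by the shared number in their titles. In SPF animals 1 to 4 it was at 19644, 16178, 14714 and 12535 CPM in cortex and at 14647, 11447, 12504 and 9691 CPM in hippocampus. In animals GF529, GF530 and GF532 it was at 13777, 13285 and 13050 CPM in cortex and at 10690, 9327 and 10990 CPM in hippocampus. In animals GFA518, GFA523, GFA524 and GFA525 it was at 16141, 15829, 16077 and 16722 CPM in cortex and at 11856, 12237, 12720 and 11181 CPM in hippocampus. The regional ranges were apart in GF and GFA animals and overlapped in SPF animals. SPF animals varied together in both regions, with animal 1 highest and animal 4 lowest in each.

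With the animal as a block, the Csf1r difference, hippocampus minus cortex, was -0.37 in SPF (SE 0.06, adjusted p = 0.0215), -0.38 in GF (SE 0.07, adjusted p = 0.0626) and -0.43 in GFA (SE 0.06, adjusted p = 0.00556). Averaged over housing, a comparison added after the values were seen, it was -0.39 (SE 0.04, adjusted p = 6.28e-05), a 1.31-fold lower level. Csf1r was the 1 member called in SPF and in GFA, where 0.718% and 2.38% of all genes were called. In GF edgeR called 0 members, against 0.0359% of all genes, with 2 members at an unadjusted p under 0.05 and 1, Csf1r, called by DESeq2. Without the block the single-housing calls were lost, with adjusted p of 0.183 in SPF and 0.07 in GFA. The averaged call remained, with an adjusted p of 0.00122. The SPF call was also lost without animal 1, 2 or 4 (adjusted p of 0.0801, 0.233 and 0.0771), and the GFA call without GFA525 (adjusted p = 0.0580).

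Csf3r, the G-CSF receptor, was also lower in hippocampus in 11 of 11 animals, by 0.14 to 0.43 on the log2 scale. In SPF animals it was at 930, 732, 784 and 668 CPM in cortex and at 724, 617, 669 and 600 CPM in hippocampus. In GF animals it was at 654, 579 and 673 CPM in cortex and at 577, 459 and 601 CPM in hippocampus. In GFA animals it was at 743, 764, 693 and 748 CPM in cortex and at 668, 579, 631 and 556 CPM in hippocampus, without overlap. The averaged difference was -0.25 (SE 0.04, adjusted p = 0.00239), so 2 of 5 members were called in that comparison, with Csf1r, against 12.5% of all genes and 8.06% called lower. Single-housing differences of Csf3r were -0.24 in SPF (adjusted p = 0.132), -0.23 in GF (adjusted p = 0.266) and -0.27 in GFA (adjusted p = 0.0544). DESeq2 called Csf3r in SPF (adjusted p = 0.0159) and GFA (adjusted p = 0.00749).

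The other members did not pass between regions. Csf2rb was lower in hippocampus in 8 of 11 animals, with an averaged difference of -0.14 (SE 0.06, adjusted p = 0.161). Csf2ra was lower in 5 of 11 (averaged difference -0.04, 95% interval -0.22 to 0.15) and Csf1 in 4 of 11 (averaged difference -0.00, 95% interval -0.43 to 0.43). Csf1 values per animal ran from 1.93 lower to 1.03 higher in hippocampus, the widest spread of the members. Among the microglial markers, Tmem119 was lower in hippocampus by 0.30 and Gpr34 and Olfml3 were higher, by 0.27 and 0.18, so the list did not move as one. Of other lists, the border macrophage marker Mrc1 (-1.38) and the endothelial marker Pecam1 (-0.48) were lower in hippocampus. The other border macrophage marker tested, Cbr2, went the other way, at 0.12 (adjusted p = 0.942). Flt1 and Vwf of the endothelial list were at -0.87 and -2.60 and did not pass. Border macrophage sums were 8.97 to 35.8 CPM in cortex and 1.26 to 27.3 CPM in wild-type hippocampus. The part of these cell types in the Csf1r and Csf3r differences was not tested. Csf1r overlaps Hmgxb3 on the opposite strand, and 17.7% of the 50-base stretches of the longest Csf1r transcript are shared with it. The strand setting of the counting is not given in the sources used here. Hmgxb3 had group means of 63.4 to 90.6 CPM in cortex and hippocampus, against at least 10335 CPM for Csf1r.

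**Figure D3:**
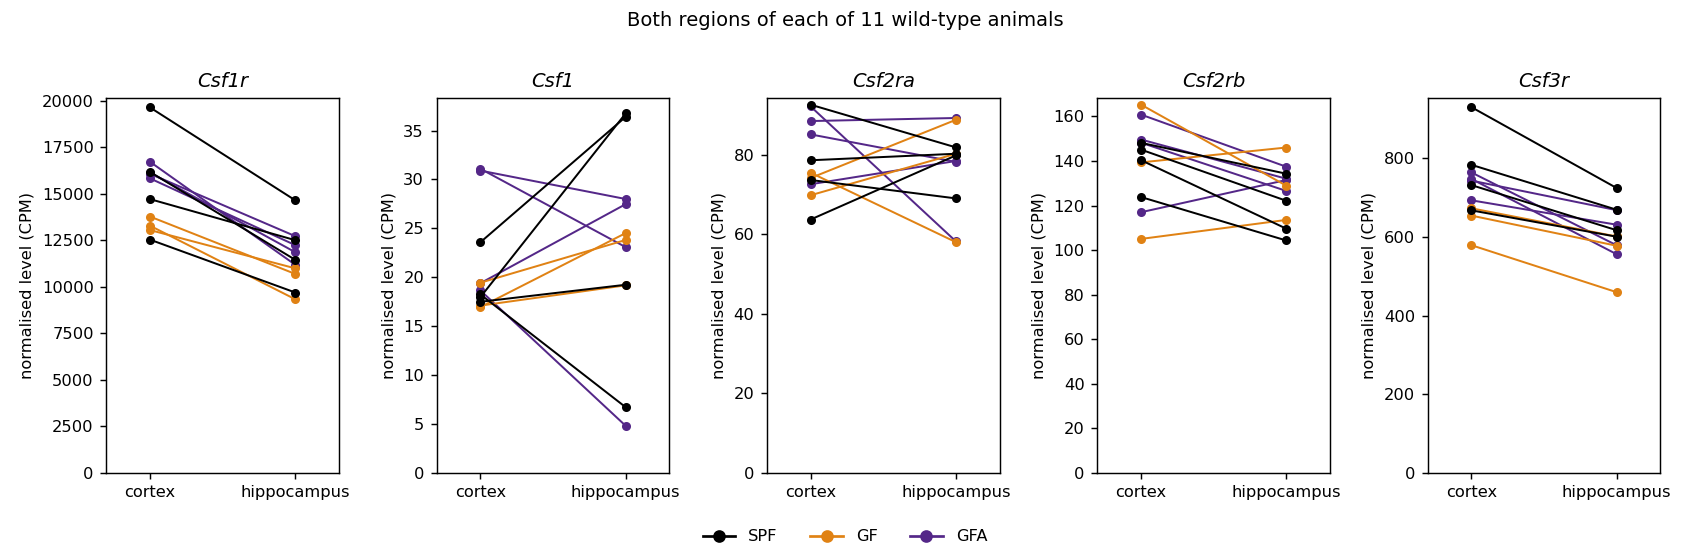
Level of each member in CPM (vertical axis, from 0) in cortex and hippocampus of the same 11 wild-type animals, coloured by housing. Each line is 1 animal, paired by the number in the titles. All lines fall for Csf1r and Csf3r, while those of Csf1 and Csf2ra cross.

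Housing comparisons asked how the absence of a microbiota, and acetate given in its absence, related to the members. In whole brain Csf1 was at 18.5, 19.6 and 21.9 CPM in SPF and at 28.3, 27.7, 28.97, 26.5 and 26.1 CPM in GF libraries, so that all GF libraries were higher. The difference was 0.46 (SE 0.13, adjusted p = 0.0825), and DESeq2 called it (adjusted p = 0.00748). Csf2ra was at 30.2, 28.9 and 29.1 CPM in SPF and at 27.2, 24.6, 25.8, 27.2 and 19.6 CPM in GF, lower in every GF library, with a difference of -0.24 (SE 0.13, adjusted p = 0.426). Csf1r was at 15581, 16190 and 15088 CPM in SPF and at 15254, 15525, 15766, 16216 and 15518 CPM in GF, with a difference of 0.00 and a 95% interval of -0.07 to 0.07. Csf2rb differed by -0.27 (SE 0.11, adjusted p = 0.240) and Csf3r by -0.12 (SE 0.09, adjusted p = 0.563), with overlapping ranges. Whole-brain Csf3r was at 284 CPM in GF4, the library with neutrophil markers, inside the range of its group (237 to 297 CPM). edgeR called 0 of 5 members in whole brain, against 1.99% of all genes, with 2 members at an unadjusted p under 0.05 and 1 called by DESeq2.

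In cortex, the group means of all 5 members were lowest in GF mice, and no difference passed the test. How many of all genes had their lowest mean there was not counted. Some gaps were small beside the spread, as for Csf2rb, at 134 ± 25.1 CPM in GF and 139 ± 10.8 CPM in SPF (SD). Csf1r averaged 15768 ± 2986 CPM in SPF, 13143 ± 547 CPM in GF and 16192 ± 378 CPM in GFA (SD, n = 4 each). The GF and GFA ranges did not overlap, while the SPF range overlapped both. The Csf1r difference was -0.27 for GF against SPF (SE 0.11, adjusted p = 0.250) and 0.30 for GFA against GF (SE 0.11, adjusted p = 0.236). Without SPF4 the first was -0.36 (adjusted p = 0.0461), and in a fit of only the groups compared the second was 0.30 (adjusted p = 0.0205). Csf3r averaged 778 ± 112 CPM in SPF, 641 ± 42.2 CPM in GF and 737 ± 30.7 CPM in GFA, with differences of -0.28 (SE 0.10, adjusted p = 0.167) and 0.20 (SE 0.10, adjusted p = 0.460), and its GF and GFA ranges were also apart. Csf1 was at 18.7, 30.9, 19.4 and 31.1 CPM in GFA cortex and at 16.9 to 19.4 CPM in GF cortex, a difference of 0.46 (SE 0.19, adjusted p = 0.327). In cortex edgeR called 0 of 5 members for GF against SPF, GFA against GF and GFA against SPF, where 1.71%, 0.973% and 0.364% of all genes were called. Unadjusted p was under 0.05 for 2, 3 and 0 members, and DESeq2 called 0 in each.

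In hippocampus no member passed the test between housing groups. In wild type, Csf1r differed by -0.23 for GF against SPF (SE 0.11, adjusted p = 0.399) and by 0.22 for GFA against GF (SE 0.11, adjusted p = 0.453), in which the ranges were apart. Csf3r differed by -0.26 for GF against SPF (SE 0.11, adjusted p = 0.335). In 5xFAD, Csf1 was 0.53 higher in GFA than in GF (SE 0.49, adjusted p = 0.947), with ranges apart, and 0.17 higher in GF than in SPF (SE 0.49, adjusted p = 0.961). The latter turned to -0.13 (SE 0.45, adjusted p = 0.966) without the library labelled 5xFAD SPF2152, so Csf1 shows no direction there. For GFA against SPF, Csf1 differed by 0.69 (SE 0.45, adjusted p = 0.903), or 0.40 (SE 0.43, adjusted p = 0.962) without that library. Csf1r in 5xFAD differed by 0.06 for GF against SPF and by 0.08 for GFA against GF, with adjusted p of 0.933 and 0.992. The comparisons within a genotype share groups, so their values are not independent. edgeR and DESeq2 called 0 of 5 members in the 6 housing comparisons of hippocampus, where the shares of all genes called for GF against SPF, GFA against GF and GFA against SPF were 0.727%, 0.492% and 0.123% among wild-type mice, and 1.82%, 0.082% and 0.0527% among 5xFAD mice. Among them 1 member, Csf3r in wild-type GF against SPF, had an unadjusted p under 0.05.

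**Figure D4:**
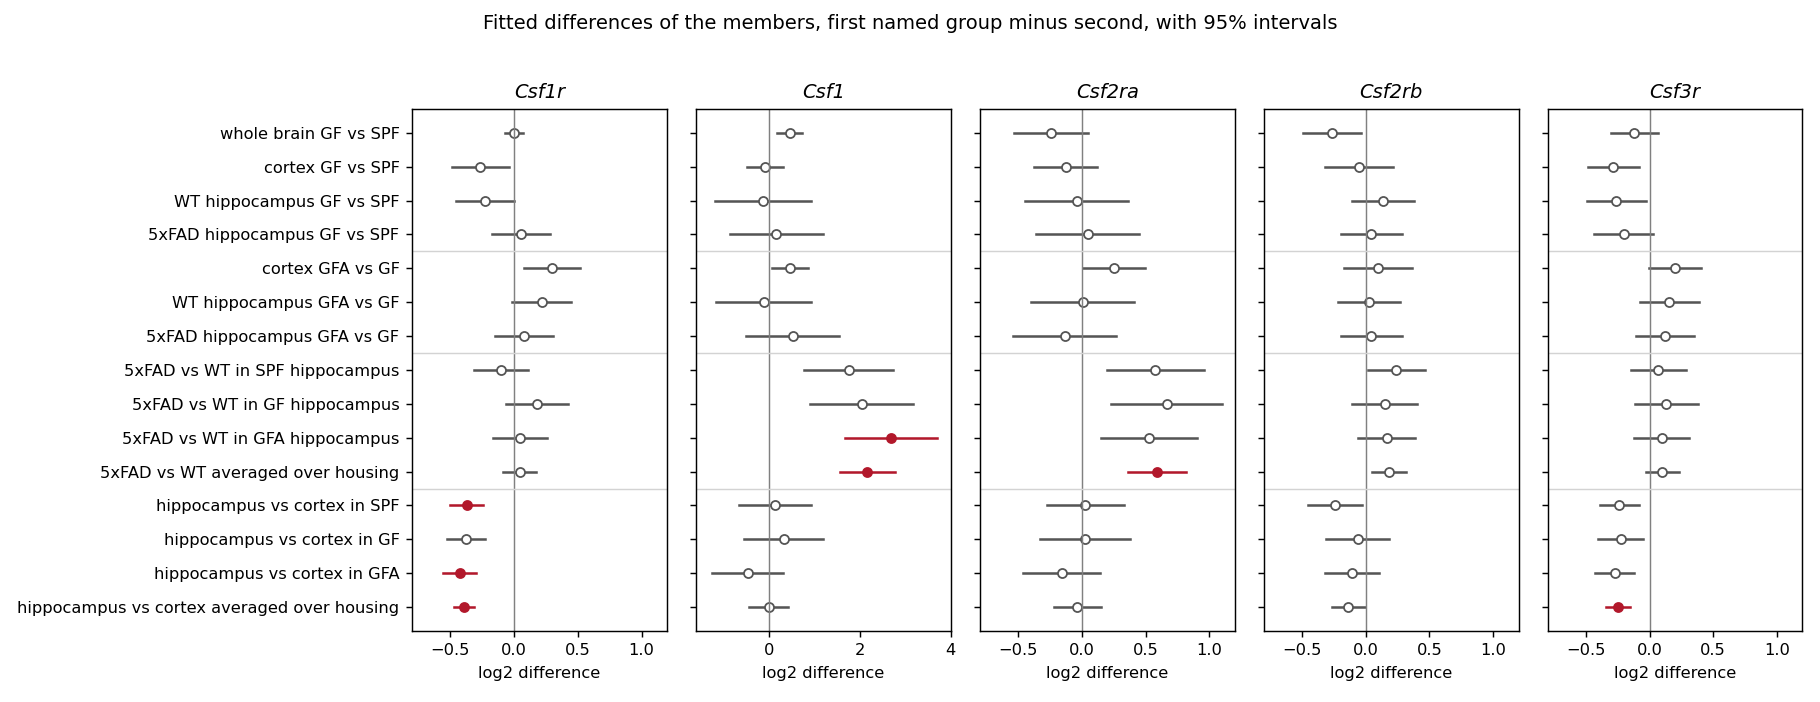
Fitted log2 difference (horizontal axis) of each member in 15 comparisons (vertical axis), first named group minus second, with 95% intervals. Filled red points passed an adjusted p of 0.05, and the axis of Csf1 is wider than the others. The intervals of Csf1 and Csf2ra lie wholly to the right of 0 in all 4 genotype rows. Those of Csf1r and Csf3r lie wholly to the left in all 4 region rows. Points of Csf2rb in both sets of rows, and of Csf3r in the genotype rows, lie on the same sides. Some of those intervals cross 0.

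The ligands other than Csf1 were hardly detected in these cells. Il34 had at most 1 count in any library and a count in 3 of 42, Csf2 and Il3 had 0 counts in all 42, Csf3 had 1 count in 1 library, and Il5 had counts in 2. Of the 56 genes of the pathway listed beside the members, 49 were tested in each fit. In the averaged genotype comparison 3 of 49 were higher and 0 lower, with a median of 0.07 against 0.00 over all genes. Over all genes 6.96% were called and 4.2% were higher. Tyrobp, a signalling adaptor that works with TREM2 and CSF1R, rose by 0.83 (SE 0.12, adjusted p = 7.79e-05), and it was also called within GFA animals (0.93, adjusted p = 0.00981). Without the library labelled 5xFAD SPF2152, Tyrobp was also called within SPF animals (0.89, adjusted p = 0.00586) and GF animals (0.85, adjusted p = 0.0238). Il3ra, the IL-3-binding chain that pairs with the beta chains, rose by 1.84 (SE 0.41, adjusted p = 0.00598), at 2.40 to 6.19 CPM in 10 5xFAD libraries, 0.335 CPM in the library labelled 5xFAD SPF2152 and 0.166 to 2.24 CPM in wild type. Fyn, a Src family kinase, rose by 0.46 (SE 0.12, adjusted p = 0.0235). Without the library labelled 5xFAD SPF2152 the averaged differences of Tyrobp, Il3ra and Fyn were 0.89, 1.97 and 0.50, and 4 of 49 were higher against 7.87% of all genes called.

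Between regions, 16 of 49 pathway genes were lower in hippocampus in the averaged comparison and 1 was higher, with a median of -0.11 against -0.04 over all genes. Over all genes 12.5% were called and 8.06% were lower. The genes with the smallest p were Akt1, a survival kinase downstream of CSF1R, lower by a log2 difference of -0.38 (adjusted p = 1.68e-04), Jak1, a kinase of cytokine receptors, -0.49 (adjusted p = 1.68e-04), Adam17, the protease that sheds CSF1R, -0.47 (adjusted p = 6.76e-04), and Pik3cd, a phosphoinositide kinase subunit, -0.42 (adjusted p = 8.64e-04). The 1 gene higher was Ccnd1, which encodes cyclin D1, by 0.49 (adjusted p = 0.00110). Of the transcription factors that act on the receptor genes, Spi1, which encodes PU.1, was lower by a difference of -0.22 (adjusted p = 0.0261) and Cebpa of -0.39 (adjusted p = 0.00181), and the other 4 tested did not pass. In housing comparisons Pik3r1, a regulatory subunit of the same kinase family, was higher in GF than in SPF in cortex (0.47, adjusted p = 0.0120), wild-type hippocampus (0.70, adjusted p = 0.0125) and 5xFAD hippocampus (0.61, adjusted p = 0.0113). Ptpn6, a phosphatase that restrains CSF1R signalling, was lower in GF in cortex (-0.39, adjusted p = 0.0474), wild-type hippocampus (-0.57, adjusted p = 0.0239) and 5xFAD hippocampus (-0.65, adjusted p = 0.00440). Pik3r1 was lower in GFA than in GF in cortex (-0.40, adjusted p = 0.0446), wild-type hippocampus (-0.56, adjusted p = 0.0485) and 5xFAD hippocampus (-0.67, adjusted p = 0.0431). Cortex and wild-type hippocampus share mice, and both Pik3r1 comparisons use the same GF libraries, so these values are not independent. For GF against SPF, 4, 2 and 5 of 49 pathway genes were called in cortex, wild-type hippocampus and 5xFAD hippocampus. Of all genes 1.71%, 0.727% and 1.82% were called there. For GFA against GF the counts were 2, 1 and 1, against 0.973%, 0.492% and 0.082% of all genes. In whole brain 1 of 49 pathway genes was called, against 1.99% of all genes. It was Cebpb, a transcription factor, higher in GF by 0.80 (adjusted p = 2.24e-04).

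The genes whose levels followed each member most closely were found by Pearson's r of log2 CPM over the 34 cortex and hippocampus libraries among 9543 genes. The libraries share groups and animals, so r is a description. Csf1 was followed most closely by Clec7a (r = 0.93), Itgax (0.91) and Ank (0.91). Csf2ra was followed by Axl (0.84), Npc2 (0.84) and Cst7 (0.83). For Csf1r the genes were Arhgap27 (0.94), Sirpa (0.94) and Plxnb2 (0.93). For Csf3r they were Pik3ap1 (0.83), Man1c1 (0.82) and Yars (0.81), and for Csf2rb Mprip (0.67), Kat7 (0.66) and Usp11 (0.66), a weaker likeness. Among the members, r was 0.75 between Csf1 and Csf2ra and 0.77 between Csf1r and Csf3r. After the group means were taken out r was 0.33 for Csf1 and Csf2ra and 0.68 for Csf1r and Csf3r, and it was -0.25 between Csf1r and Csf1 over the 34 libraries. Over the 8 whole-brain libraries r was -0.56 for Csf1 and Csf2ra and 0.25 for Csf1r and Csf3r. With the genes named above, in the order given, r after the group means were taken out was 0.81, 0.84 and 0.56 for Csf1. That r was 0.66, 0.69 and 0.63 for Csf2ra and 0.90, 0.88 and 0.91 for Csf1r. For Csf3r it was 0.71, 0.70 and 0.61, and for Csf2rb 0.50, 0.73 and 0.52. In the same order, whole-brain r was 0.49, 0.39 and 0.73 for Csf1. It was -0.17, -0.31 and 0.08 for Csf2ra and 0.19, -0.14 and 0.06 for Csf1r. For Csf3r it was -0.00, -0.37 and 0.51, and for Csf2rb 0.22, 0.00 and -0.57.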

How the data were processed

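The authors deposited raw counts of reads per gene. Per the submitters' processing notes, the tools were STAR 2.5.2b and featureCounts 1.5.1 and the build GRCh38, a human build although the symbols are of mouse, so the files give no coordinates used here. Exon lengths and overlaps come from GENCODE M21.

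Each tissue's counts, and the libraries of both regions together, were fitted with edgeR 4.0.16 (R 4.3.3, limma 3.58.1): a minimum count of 10 in filterByExpr, TMM scaling and robust two-sided quasi-likelihood tests, with Benjamini-Hochberg adjustment across every gene in the fit. Scripts were tested on simulated data. SE is the log2 difference over the square root of F. Levels are CPM with TMM-scaled library sizes. Overlap of ranges was looked at for the members only, so no share of all genes stands beside any statement of ranges apart.

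Region tests hold the mouse as a block, because titles carry the same number in both regions. The titles do not say that this number is a mouse, and in SPF it is a serial number, as in whole brain. Deviations of the 11 pairs correlated at 0.03 to 0.12. Cortex GF528 has no hippocampus partner and was left out there. Nothing states outright that libraries of a group are separate animals, so p-values measure only the spread between them, which may be technical. Counts of all 61 within-group pairs differed beyond sampling noise.

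Alternatives were DESeq2 1.42.0, RLE scaling, other filters, fits of fewer groups, libraries left out and the block. The members, pathway and marker lists and tests were chosen with earlier results of these data known. Named genes are the members, Csf2rb2, Il34, up to 4 called pathway genes per comparison by p, the 3 genes most like each member, and markers as a check. Ccnd1, Spi1 and Cebpa were named after their values were seen, and some genes the rule picks in single comparisons are left out. Some items are not reported here.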

Additional observations from a re-analysis of the deposited data

Results flagged for a closer look

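Of 40 groups of member values with 4 to 10 libraries, 2 held a library far from the others by Dixon's test at the 95% level, about the number that chance gives at 1 in 20. Csf1 in SPF cortex was highest in animal 1, at 23.57 CPM, against 17.5 to 18.3 CPM in the other 3 libraries. Csf2ra in wild-type SPF hippocampus was lowest in animal 3, at 68.98 CPM, against 79.8 to 81.8 CPM in the other 3. The library labelled 5xFAD SPF2152 was not picked out by this test for Csf1.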

How the results depend on the processing

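Over the alternatives, 1615 values of the members were recomputed. Of these 1589 kept their side of the threshold, 6 lost a call, 20 gained one and 0 called values reversed, while 113 uncalled values changed sign. The averaged differences of Csf1 and Csf2ra between genotypes were called in 28 of 28 alternatives (2.05 to 2.26 and 0.53 to 0.66), and those of Csf1r and Csf3r between regions in 17 of 17 (-0.42 to -0.36 and -0.26 to -0.21). Counts of members called moved as follows. DESeq2 called 1 member in whole brain, 1 in 5xFAD against wild type in SPF and 1 in GF hippocampus, and 2, 1 and 2 between regions in SPF, GF and GFA. A fit of only the groups compared called 1 in cortex GFA against GF and 1 in 5xFAD against wild type in GF. Without SPF2152, GF530 and GFA518, 2 were called in 5xFAD against wild type in SPF and 1 in GF; without SPF2152 and SPF2153, 2 in SPF. In the averaged 5xFAD comparison, 2 members were called, and 3 with DESeq2 or without 5xFAD GF531. Between regions in GF, no filter and the filter at a mean of 5 CPM each called 1. Leaving out each replicate gave 0 to 1 members in cortex GF against SPF, 0 to 2 in 5xFAD against wild type in SPF, and 0 to 1 between regions in SPF and in GFA. Without the replicate block 0 members were called between regions in SPF and 0 in GFA.

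With the replicate number as a block in whole brain, 0 members were called and the Csf1 difference was 0.48 (adjusted p = 0.296). Same-numbered whole-brain libraries deviated with correlations of -0.04 to -0.00 over 3 pairs. Cortex and hippocampus pairs of one animal went as low as 0.03. The correlations therefore cannot decide whether the numbers pair the whole-brain libraries. With 3 to 5 libraries a group, Csf2ra within one housing group passed the threshold in 3 fits, each of SPF hippocampus without SPF2152.
Counts of all genes called moved more than those of members. For 5xFAD against wild type they were 97 in SPF (10 with only the groups compared to 457 without SPF2152, GF530 and GFA518), 129 in GF (31 without wild-type GF530 to 443 with DESeq2), 428 in GFA (252 to 792) and 1188 averaged (926 to 1649). Between regions they were 120 in SPF (0 without the block to 938 with DESeq2), 6 in GF (0 to 520), 397 in GFA (17 without GFA525 to 1444) and 2086 averaged (1242 to 3185). For GF against SPF they were 226 in whole brain (46 to 658), 259 in cortex (124 to 643), 124 in wild-type hippocampus (25 to 468) and 311 in 5xFAD hippocampus (107 to 629). For GFA against GF they were 147 in cortex (23 to 480), 84 in wild-type hippocampus (0 to 398) and 14 in 5xFAD hippocampus (2 to 153). For GFA against SPF they were 55 (25 to 138), 21 (11 to 94) and 9 (1 to 94) in the same order. The 3 interactions had 0 genes in the main test and up to 18, 6 and 25 with DESeq2.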
